A study of Mus musculus with 6 samples.

Results

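Hepatic stellate cells and the myofibroblasts they can become were followed through 10 marker genes: Pdgfra, Pdgfrb, Des, Vim, Cygb, Reln, Colec11, Hhip, Acta2 and Tagln. The genes were taken by symbol and chosen with earlier results of these data known. All 10 were present among the 24982 genes of the count tables, and all 10 were among the 12949 genes that passed the filter on low counts. Liver polyA RNA came from male C57BL/6NJ mice on either a chow diet (3 samples) or a high fat diet with sugar water (3 samples, labelled high fat high sugar and abbreviated HFHS below), each for 54 weeks. No allele, transgene or drug is named for either group, so strain, sex and tissue were shared and diet was the stated difference. Whether each sample is a separate animal is not stated in the labels, and p-values then measure the spread between these samples, which may be technical.

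Stellate cells lie between the sinusoidal endothelium and the hepatocytes, store vitamin A as retinyl esters, and are the main source of scar-forming myofibroblasts in injured liver. On activation they lose retinoid droplets, respond to platelet-derived growth factor through Pdgfra and Pdgfrb, divide, lay down collagen, and can take up a contractile programme marked by the smooth muscle actin Acta2 and the actin-binding protein Tagln. Des and Vim encode intermediate filament proteins, Cygb a globin used as a stellate cell marker, Reln a secreted glycoprotein, Colec11 a secreted collectin and Hhip a membrane protein that binds hedgehog ligands. Reln, Colec11 and Hhip are grouped here as associated with quiescence, Acta2 and Tagln as contractile, and the other 5 as pan-stellate or broadly mesenchymal. Vim is also made by macrophages and endothelial cells, and Acta2 and Tagln by vascular smooth muscle.

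Gene counts per library ran from 16565335 to 20585366. The first principal component, with 70.7% of the variance, set the diets apart, and HFHS replicate 2 stood apart, with Pearson correlations across genes of 0.961 and 0.957 with the other libraries of its group against 0.982 between those. In that library 7 of the 10 genes had their highest level of the group, hepatocyte markers had their lowest summed level and macrophage markers their highest. Levels are given as CPM, counts scaled to TMM-adjusted library size, and are not corrected for gene length unless this is said. In bulk tissue a change in the number of cells of a type and a change in RNA per cell cannot be told apart.

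After the HFHS diet, 8 of the 10 genes rose: the growth factor receptors Pdgfra and Pdgfrb, the filament genes Des and Vim, Cygb, Reln, Colec11 and Tagln (quasi-likelihood test of edgeR, adjusted p under 0.05 by Benjamini-Hochberg over all tested genes). Across all tested genes 11.0% were called higher and 3.61% lower. None of the 10 was called lower, by edgeR, DESeq2 or limma-voom, and 1, Hhip, was lower at an unadjusted p under 0.05. The libraries of the diets did not overlap for any of the 10 genes, which held for 39.5% of tested genes. The HFHS libraries were on top for 9, an order that 21.5% of tested genes showed, and the chow libraries on top for Hhip. The median log2 fold change was 1.36 over the 10 genes and -0.02 over all tested genes. Because the 10 genes were chosen with earlier results known, these contrasts with all tested genes are a description. By role the medians were 1.93 for the 5 pan-stellate and mesenchymal genes, 1.34 for the 2 contractile genes and 0.88 for the 3 genes associated with quiescence. In that order the ranges were 1.29 to 2.11, 1.25 to 1.43 and -1.36 to 1.15, and the 0.88 is the value of Colec11. With HFHS replicate 2 left out 8 genes were again called higher, but the count was 5 without chow replicate 1 and 3 without chow replicate 2. Calls over the whole table also changed with the library left out, over the range given in the last section. These counts, and those of the lists below, therefore do not show whether a loss is particular to the genes named. The calls of Des, Vim and Tagln were lost in both of these fits, and those of Pdgfra and Cygb in the second. Without chow replicate 3 edgeR called 0, with 9 at an unadjusted p under 0.05, in a fit that called 4 genes higher and 2 lower in the whole table. In the main edgeR fit the unadjusted p of the hedgehog gene Ihh, 0.0475, had rank 4099 among the 12949 tested genes. Many genes thus lie under 0.05 unadjusted, and counts at that cut, here and below, are given without the share over all genes.

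**Figure D1:**
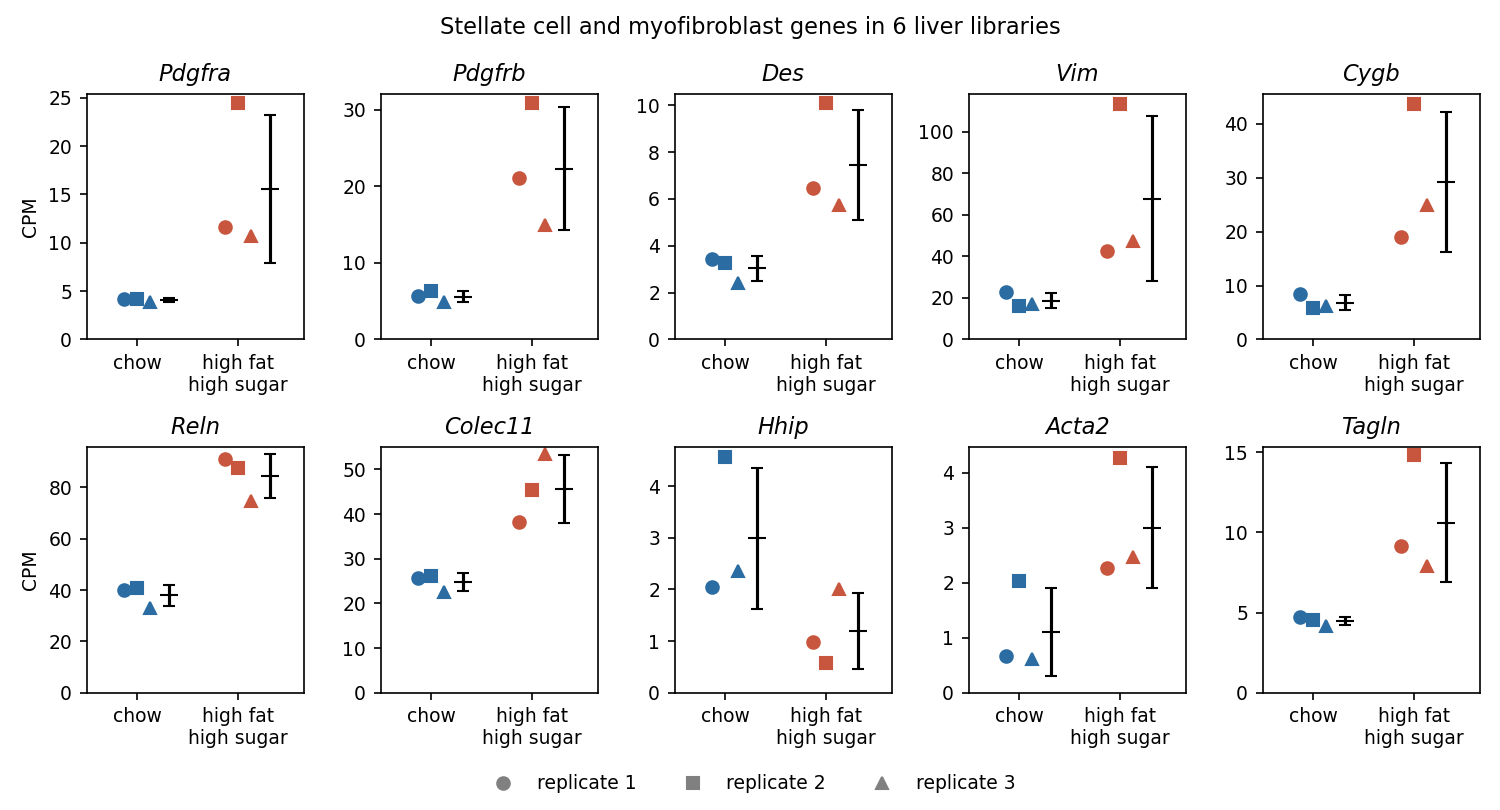
CPM of each of the 10 genes in the 6 libraries, with a separate y axis from 0 for each gene; symbols mark replicates, and the black bar is the mean ± SD of 3 libraries. High fat high sugar replicate 2 is the highest point for 7 of the genes, and Hhip is the gene whose chow libraries lie above the others.

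Of the 10 genes, Pdgfrb and Pdgfra had the highest log2 fold changes after Cygb. Pdgfrb (chromosome 18, 61045150 to 61085061, plus strand, GRCm38), the receptor through which platelet-derived growth factor drives stellate cell division, was at 5.61, 6.27 and 4.85 CPM in chow replicates 1, 2 and 3 and at 21.1, 30.8 and 14.9 CPM in HFHS replicates 1, 2 and 3. Every HFHS library lay at more than the highest chow level, and the lowest of them was 2.67 times the chow mean. The log2 fold change was 2.00 ± 0.27 (SE, edgeR adjusted p = 0.0101). Pdgfra (chromosome 5, 75152292 to 75198215, plus strand), the alpha receptor, was close to constant in chow at 4.22, 4.18 and 3.84 CPM and was at 11.6, 24.4 and 10.7 CPM in HFHS replicates 1, 2 and 3. Its mean went from 4.08 ± 0.212 to 15.6 ± 7.68 CPM (SD, n = 3), and the wide spread came from replicate 2, which stood at 5.99 times the chow mean against 2.85 and 2.61 times in the other libraries. Pdgfra rose by 1.93 ± 0.34 on the log2 scale (edgeR adjusted p = 0.0155), and by 1.46 without HFHS replicate 2.

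The ligands of these receptors were measured in the same libraries, and 3 of 4 rose. Pdgfb, the ligand with the highest affinity for the beta receptor, was at 1.67, 0.714 and 1.01 CPM in chow and at 3.92, 7.50 and 3.13 CPM in HFHS replicates 1, 2 and 3, a log2 fold change of 2.10 ± 0.44 (edgeR adjusted p = 0.0230). Pdgfc rose by 1.37 ± 0.26 and Pdgfd by 1.63 ± 0.40 on the log2 scale. Pdgfa, at 5.86 to 8.11 CPM in chow and 7.48 to 12.2 CPM in the HFHS group, overlapped between the diets and did not pass (0.56 ± 0.22). Without chow replicate 2 or chow replicate 3 edgeR called 0 of the 4, with 3 at an unadjusted p under 0.05 in each fit, and over all 6 libraries DESeq2 called 3 and limma-voom 2. Without HFHS replicate 3 edgeR called all 4 higher, Pdgfa among them.

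Cygb (chromosome 11, 116645595 to 116654313, minus strand), the globin marker of stellate cells, had the largest log2 fold change of the 10 genes. It was at 8.34, 5.77 and 6.26 CPM in chow replicates 1, 2 and 3 and at 18.9, 43.7 and 25.0 CPM in HFHS replicates 1, 2 and 3. The diets were well apart, and the rise was 2.11 ± 0.33 on the log2 scale (edgeR adjusted p = 0.0130). Prcd, which overlaps Cygb on the other strand, had at most 9 counts in any library.

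Of the filament genes, Vim (chromosome 2, 13573927 to 13582826, plus strand) had the higher level and the wider spread. It was at 22.8, 16.2 and 16.9 CPM in chow and at 42.7, 114 and 47.3 CPM in HFHS replicates 1, 2 and 3. Replicate 2 stood at 6.09 times the chow mean and the other libraries at 2.29 and 2.54 times. Vim rose by 1.87 ± 0.40 on the log2 scale (edgeR adjusted p = 0.0290), with 1.28 when HFHS replicate 2 was left out, and was not called with no filter on low counts (edgeR adjusted p = 0.0550), with the replicate number as a block (0.0749), or without chow replicate 1, 2 or 3 (0.0603, 0.0925 and 0.111). The summed level of macrophage markers, from cells that also make Vim, had the same library on top. It was 170 to 224 CPM in chow and 627, 1054 and 522 CPM in HFHS replicates 1, 2 and 3. In replicate 2 Lyz2 alone was at 480 CPM, while Clec4f was highest in replicate 1 (179, 170 and 162 CPM). Summed portal fibroblast and cholangiocyte markers were also highest in replicate 2. All 8 macrophage markers rose by edgeR (4 with the replicate number as a block, 3 without chow replicate 2 and 0 without chow replicate 3, each time with 8 at an unadjusted p under 0.05). Their part in the Vim result was not tested. Des (chromosome 1, 75360329 to 75368579, plus strand), whose product desmin is a classical stellate cell filament in rodents, was at 3.45, 3.24 and 2.42 CPM in chow and at 6.45, 10.1 and 5.75 CPM in the HFHS libraries. It rose by 1.29 ± 0.27 on the log2 scale (edgeR adjusted p = 0.0228). Among 6 other non-keratin filament genes, 3 rose: Gfap, known from astrocytes and stellate cells (2.33 ± 0.39, from 10 counts over the chow libraries and 65 over the others), Nes (1.29 ± 0.30) and Synm, a partner of desmin (1.57 ± 0.42). The 3 rises became 1 without chow replicate 1 or HFHS replicate 1 and 0 without chow replicate 2 or 3, with 3 at an unadjusted p under 0.05 by edgeR in each of these fits. The nuclear lamin gene Lmnb1 was at -0.04 ± 0.16.

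Reln had the smallest SE of the 10. It lies on chromosome 5, 21884454 to 22344702, minus strand, and encodes reelin, which in liver is made chiefly by stellate cells. Its levels were 39.9, 40.7 and 33.2 CPM in chow and 91.0, 87.3 and 74.9 CPM in HFHS replicates 1, 2 and 3. Here HFHS replicate 2 was not set apart, and the ratios to the chow mean were 2.40, 2.30 and 1.97. Reln rose by 1.15 ± 0.13 on the log2 scale (edgeR adjusted p = 0.00775), the smallest p among the 10. The reelin receptor Vldlr (0.92 ± 0.27) and the adaptor Dab1 (1.33 ± 0.43, on 12 counts in chow and 38 in the HFHS group) had all HFHS libraries above all chow libraries and did not pass by edgeR, although DESeq2, and edgeR scaled by library size only, called Vldlr higher. The receptor Lrp8, with 3 and 18 counts, was not tested.

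Colec11 (chromosome 12, 28594173 to 28623377, minus strand), a collectin that can start the lectin pathway of complement, was at 25.7, 26.1 and 22.5 CPM in chow and at 38.3, 45.3 and 53.5 CPM in HFHS replicates 1, 2 and 3. Replicate 3, not replicate 2, was the highest library. The rise was 0.88 ± 0.14 on the log2 scale (edgeR adjusted p = 0.0132). None of 6 other collectin and lectin pathway genes was called by edgeR with TMM scaling, DESeq2 or limma-voom over all 6 libraries. In the main edgeR fit 1 had an unadjusted p under 0.05, the partner collectin Colec10 (0.48 ± 0.20). The mannose-binding lectin Mbl2 was at -0.90 ± 0.39 and the scavenger collectin Colec12 at -0.17 ± 0.11 on the log2 scale. Among the alternatives, edgeR called Colec10 higher with library size only and without HFHS replicate 2, and Mbl2 lower without HFHS replicate 3.

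Hhip (chromosome 8, 79965851 to 80058006, minus strand), a decoy receptor that binds hedgehog ligands and limits their signalling, went the other way. It was at 2.06, 4.56 and 2.36 CPM in chow replicates 1, 2 and 3 and at 0.981, 0.577 and 2.01 CPM in HFHS replicates 1, 2 and 3. The gap between the diets was narrow, from 2.06 CPM in the lowest chow library to 2.01 CPM in the highest of the others, and rested on 37 and 36 counts. The log2 fold change was -1.36 ± 0.52 and did not pass (edgeR adjusted p = 0.114). Without HFHS replicate 3 Hhip was called lower (-1.97, edgeR adjusted p = 0.0436), and without chow replicate 2 it was at -0.92 (adjusted p = 0.317). Over the alternatives its adjusted p ran from 0.0436 to 0.317.

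Of 12 hedgehog pathway genes 6 were tested, and 1 was called lower. EdgeR, DESeq2 and limma-voom called 0 higher, with 2 higher at an unadjusted p under 0.05 by edgeR, while without HFHS replicate 3 edgeR called 2 higher. Gas1, a co-receptor, fell from 27.0, 26.6 and 33.3 CPM to 10.4, 8.77 and 15.4 CPM, a log2 fold change of -1.33 ± 0.22 (edgeR adjusted p = 0.0132). Ptch1, the main receptor and the usual readout of the pathway, was at 27.6, 29.0 and 32.7 CPM in chow and 30.4, 28.5 and 31.7 CPM in the HFHS group, with the diets overlapping and a difference of 0.02 ± 0.11. Smo, the signal transducer, was at 0.57 ± 0.32, the ligand Ihh at 1.10 ± 0.47 and the co-receptor Cdon at 1.02 ± 0.37, and none of these passed. The transcription factors Gli1 (3 counts in chow, 9 in the other group) and Gli2 (1 and 2 counts) and the ligand Shh (26 and 16 counts) were too low to test. The transcription factor Gli3 (12 and 60 counts) and the co-receptor Boc (10 and 53 counts) were also not tested and had all HFHS libraries above all chow libraries. Without chow replicate 3 edgeR called none of these genes in either direction, with 2 higher and 1 lower at an unadjusted p under 0.05.

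Of the contractile genes, Acta2 had the lower level. Acta2 (chromosome 19, 34241090 to 34255590, minus strand), the standard mark of the myofibroblast, had 12, 37 and 9 counts in chow replicates 1, 2 and 3 and 44, 111 and 44 counts in HFHS replicates 1, 2 and 3. In CPM this was 0.667, 2.03 and 0.606 against 2.27, 4.27 and 2.46. Chow replicate 2 lay just under the lowest HFHS library, and the other chow libraries lay well below it. The log2 fold change was 1.43 ± 0.51 and did not pass (edgeR adjusted p = 0.0982). Without chow replicate 2 it was 2.22, with an adjusted p = 0.0501, and DESeq2 called it (adjusted p = 0.0469). Over all alternatives the adjusted p ran from 0.0416 to 0.259. Of the 2146 distinct runs of 50 bases in the Acta2 transcripts, 0.326% also occurred in a transcript of another gene, so near-identical actin genes share few such runs with it.

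Tagln (chromosome 9, 45929619 to 45936058, minus strand), whose product SM22 binds actin filaments, was at 4.72, 4.51 and 4.17 CPM in chow and at 9.14, 14.8 and 7.87 CPM in HFHS replicates 1, 2 and 3. It rose by 1.25 ± 0.26 on the log2 scale (edgeR adjusted p = 0.0212), with 0.94 when HFHS replicate 2 was left out. Tagln shares 1098 of its 1983 distinct runs of 50 bases with the gene model Gm48529, which was not analysed here, and 59 with Pcsk7. Both lie on the opposite strand, and the strand setting of the counting is not given in the sources used here. Reads of these genes may therefore not be fully separated. Pcsk7 was at 34.8, 36.7 and 37.1 CPM in chow and 32.2, 27.3 and 29.6 CPM in the HFHS group, lower by a log2 fold change of -0.29 ± 0.10 that did not pass, the opposite direction to Tagln.

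Acta2 and other smooth muscle genes are textbook targets of serum response factor, which binds the CArG box, and the elements of the Acta2 promoter are shown because this gene and Tagln define the contractile group. In the RefSeq promoter windows (GRCm38.p6, 250 bases upstream of a start), 7 of the 10 genes had a window and 0 of the 7 held a strict CArG box, CC and GG around 6 bases that are all A or T, against 1.47% of all 32851 windows. Tagln, Pdgfrb and Cygb had no window and were not searched. With 1 of the 6 central bases allowed to differ, a looser pattern chosen after the strict search, Acta2 held 2 matches and the other 6 genes with a window none. At least 1 such match was found in 8.59% of all windows and at least 2 in 0.67%. Both patterns read the same on either strand. Each match is printed 5′ to 3′ on the gene's strand in capitals with 10 bases on either side, and lies 84 to 75 and 34 to 25 bases before the RefSeq start. The GENCODE gene model begins further upstream and includes both positions in its first exon.
Acta2 distal element, chr19:34255438-34255467, minus strand: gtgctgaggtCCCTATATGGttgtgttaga
Acta2 proximal element, chr19:34255388-34255417, minus strand: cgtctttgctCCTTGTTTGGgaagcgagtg
A match to a pattern describes the sequence and is neither a measured binding site nor a cause of the levels above.

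Other smooth muscle and contractile genes were mixed: of 17, 13 were tested, 6 rose and none was called lower by edgeR, with 1 lower at an unadjusted p under 0.05. The actin-binding protein gene Smtn rose by 1.24 ± 0.19, the integrin subunit Itga8, found on stellate cells and smooth muscle, by 2.73 ± 0.43, and the filamin Flna by 2.00 ± 0.38 on the log2 scale. The tropomyosin gene Tpm2 was at -0.88 ± 0.26, with all chow libraries above all others, and did not pass by edgeR. DESeq2 called it lower, as did edgeR with no filter on low counts or without HFHS replicate 3. The median over the 13 genes was 0.79. The 6 rises became 2 without chow replicate 2 and 0 without chow replicate 3, where 6 were higher at an unadjusted p under 0.05 by edgeR. Of 7 markers that separate vascular smooth muscle from other contractile cells 2 were tested, and edgeR, DESeq2 and limma-voom called neither, with 1, Synpo2, at an unadjusted p under 0.05 by edgeR (1.01 ± 0.40). Myh11, its heavy myosin, was at 2.33, 3.08 and 1.88 CPM in chow and 2.53, 3.23 and 2.01 CPM in the HFHS group, a difference of 0.09 ± 0.29. Cnn1 had 4 counts over the chow libraries and 2 over the others, and Myocd had 0 counts in all 6. All of these 7 markers but Actg2 are also in the list of 17. The summed level of the 7 was 2.56 to 3.96 CPM in chow and 3.18 to 5.15 CPM in the HFHS group. It was highest in replicate 2 of each diet, as Acta2 was. The part of these markers in the Acta2 levels was not tested. Among the other actins the cytoplasmic Actg1 rose by 1.32 ± 0.21 and Actb was at 0.81 ± 0.22 (edgeR adjusted p = 0.0510), while Acta1, Actc1 and the enteric smooth muscle actin Actg2, with 3 counts in chow and 14 in the other group, were too low to test. Actb was called higher by DESeq2 and by edgeR with library size only, upper-quartile scaling or no filter on low counts. It was also called without HFHS replicate 2 or 3, and not in the other alternatives. Actg1 was not called without chow replicate 2 or 3, and it shares 37.4% of its runs of 50 bases with other gene models, so its count is uncertain.

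**Figure D2:**
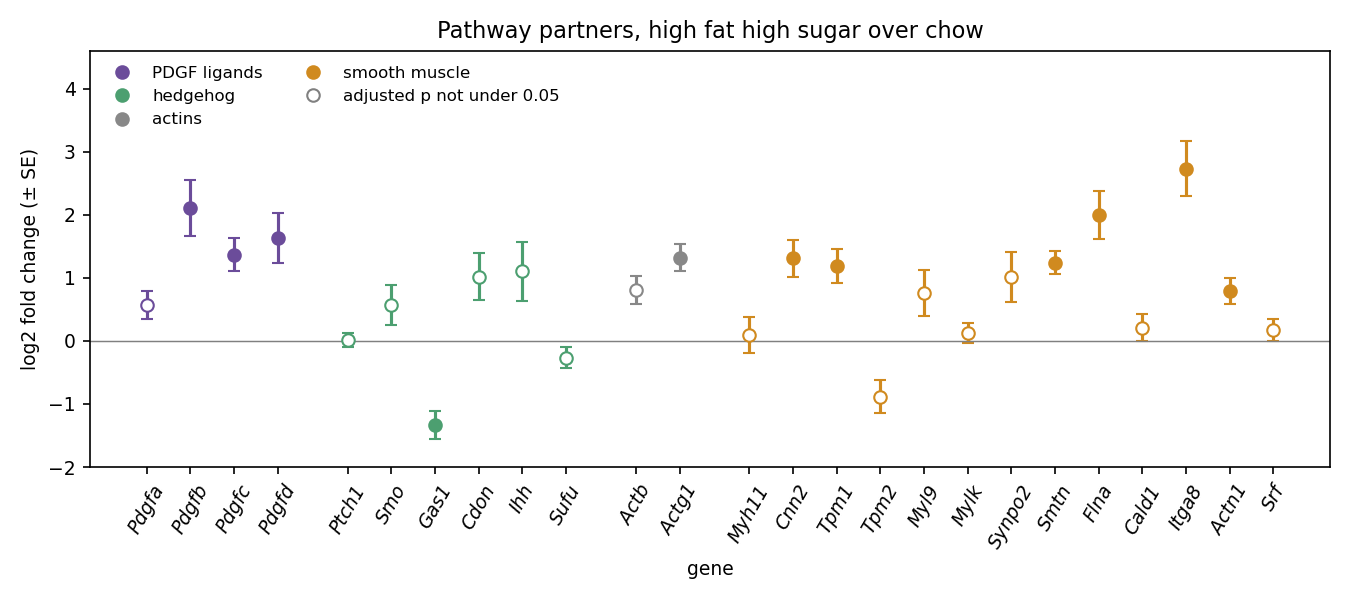
Log2 fold change (± SE, y axis) of PDGF ligands, hedgehog pathway genes, cytoplasmic actins and smooth muscle genes that were tested (x axis); filled points had an adjusted p under 0.05. Ptch1 and Myh11 lie near 0, Gas1 at -1.33, and Itga8 at 2.73.

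Levels of different genes were compared per kilobase of exon, using the union of GENCODE exons. In chow Colec11 was the highest at 15.3 ± 1.20 CPM per kb (SD, n = 3), followed by Vim (3.93 ± 0.773), Cygb (2.91 ± 0.585), Tagln (2.25 ± 0.140), Reln (1.60 ± 0.174), Pdgfrb (1.02 ± 0.130), Des (0.809 ± 0.144), Acta2 (0.502 ± 0.368), Pdgfra (0.407 ± 0.0211) and Hhip (0.330 ± 0.151). Neighbours in this order overlapped over the chow libraries for Vim with Cygb and from Pdgfrb down to Hhip, while the steps from Colec11 to Vim, Cygb to Tagln, Tagln to Reln and Reln to Pdgfrb did not overlap. In the HFHS group Pdgfrb, at 4.07 ± 1.47 CPM per kb, had a higher mean than Reln at 3.56 ± 0.356, with overlapping libraries. Acta2, at 1.37 ± 0.503 CPM per kb, had the lowest mean after Hhip, which was at 0.131 ± 0.0814.

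**Figure D3:**
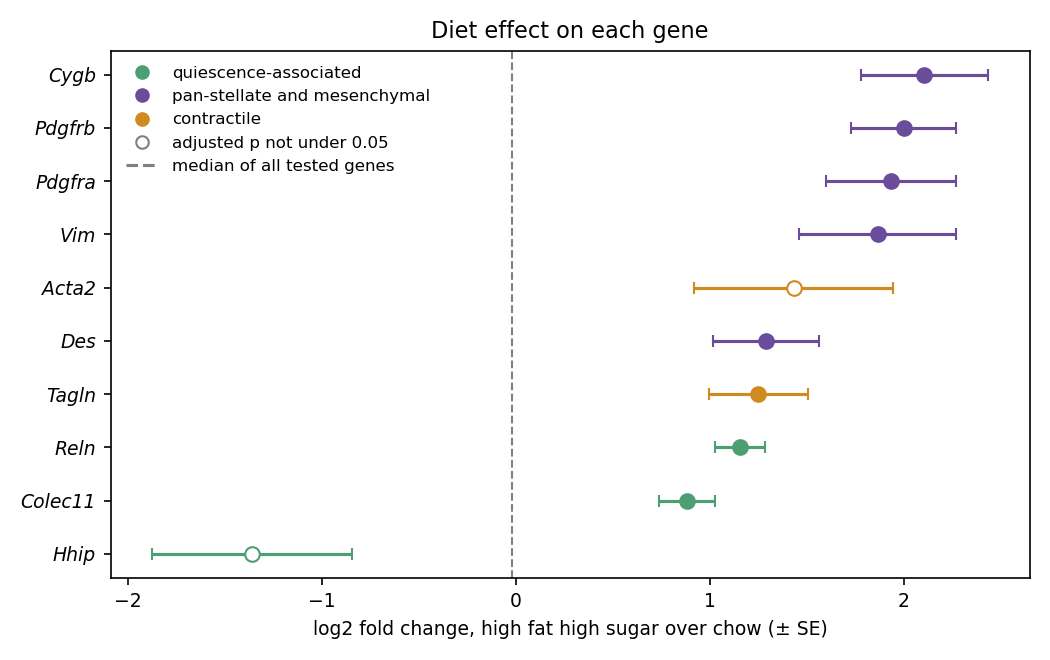
Log2 fold change (± SE, x axis) of each of the 10 genes, coloured by role; open circles had an adjusted p not under 0.05, and the dashed line is the median of all tested genes at -0.02. Cygb (2.11), Pdgfrb (2.00), Pdgfra (1.93) and Vim (1.87) lie highest, and Hhip (-1.36) is the 1 gene below the line.

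Whether the genes moved by different amounts was asked within each library, as the log2 ratio of a gene to another, which removes differences in scaling between libraries. For 12 ratios the diets were compared with a two-sided exact permutation test over the 6 libraries, which cannot give a p below 0.1, so none could pass. The ratios were set with the fold changes of several of these genes already known, and the values are a description of these libraries. In 5 of the 12 the diets did not overlap, all relative to Pdgfrb and all lower on the HFHS diet. Pdgfrb is a reference with a large rise: 4.65% of tested genes had a higher log2 fold change. Most genes would therefore have a lower ratio to it, and the share with separate diets over all genes was not computed. Reln to Pdgfrb was at 2.80, 2.68 and 2.75 in chow and 2.10, 1.50 and 2.32 in HFHS replicates 1, 2 and 3, a difference of -0.77 (exact permutation p = 0.1, adjusted p = 0.24). For Colec11 to Pdgfrb the difference was -1.05, for Des to Pdgfrb -0.69, for Tagln to Pdgfrb -0.75 and for Hhip to Pdgfrb -3.25, each with the same exact permutation p of 0.1 and adjusted p of 0.24. Tagln to Pdgfrb had little spread, with -0.31 ± 0.139 in chow and -1.05 ± 0.143 in the HFHS group (SD, n = 3).

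The remaining ratios overlapped between the diets. Pdgfra, Cygb and Vim differed from Pdgfrb by -0.12, 0.09 and -0.20 (exact permutation p = 0.6, 0.8 and 0.6). Acta2 to Pdgfrb was at -2.89, -1.57 and -2.80 in chow and -3.16, -2.82 and -2.55 in the HFHS group, a difference of -0.42 (exact permutation p = 0.5) that was 0.00 without chow replicate 2. Acta2 to Reln differed by 0.35, Acta2 to Tagln by 0.33 and Tagln to Reln by 0.02 (exact permutation p = 0.6, 0.5 and 1). These p-values do not show that the genes changed alike: the log2 ratio of Acta2 to Pdgfrb had an SD of 0.735 over the chow libraries, more than the difference itself.

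**Figure D4:**
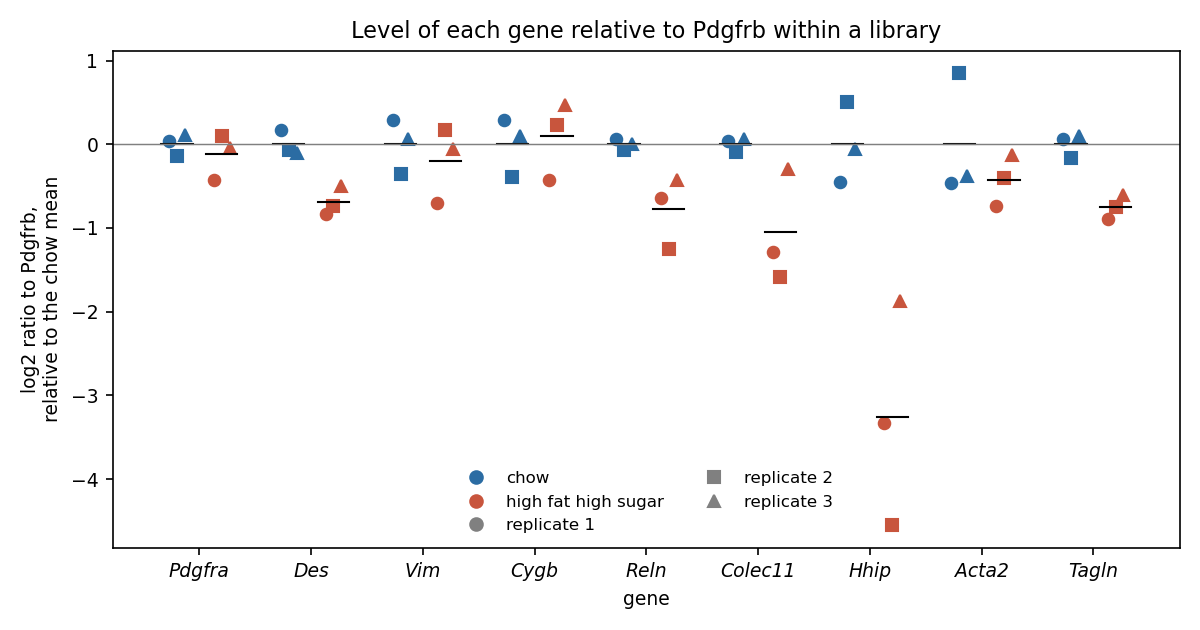
Log2 ratio of each gene to Pdgfrb within a library, minus the chow mean of that ratio (y axis), for 9 genes (x axis); symbols mark replicates and black lines the means of 3 libraries. The diets are apart for Des, Reln, Colec11, Hhip and Tagln and overlap for Pdgfra, Vim, Cygb and Acta2.

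A wider list of 24 stellate cell genes, all of them tested, had 11 higher and 1 lower, with a median log2 fold change of 1.08. Gfap and Nes, among the 11, are also in the list of filament genes above. Lrat, the enzyme that makes retinyl esters and a mark of vitamin A storing cells, was at 18.4, 13.4 and 16.6 CPM in chow and 38.8, 58.9 and 32.1 CPM in HFHS replicates 1, 2 and 3, a rise of 1.43 ± 0.24 (edgeR adjusted p = 0.0146). The hepatocyte growth factor gene Hgf rose by 1.47 ± 0.20, Bmp5 by 1.02 ± 0.15 and the neurotrophin receptor Ngfr by 1.33 ± 0.30 on the log2 scale. Lhx2, a transcription factor linked to the quiescent state (1.14 ± 0.34, adjusted p = 0.0611), did not pass by edgeR and had all HFHS libraries on top. The gene that fell was Fcna, a ficolin that Kupffer cells also make, from 43.6, 42.6 and 41.6 CPM to 25.1, 19.3 and 24.5 CPM (-0.89 ± 0.13). The count of rises was 6 without chow replicate 2. Without chow replicate 3 edgeR called 0, with 14 higher and 1 lower at an unadjusted p under 0.05, and over all 6 libraries DESeq2 called 14 higher and limma-voom 10.

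Of a list of 12 genes of fibrogenic activation 10 were tested and 8 rose, with a median log2 fold change of 2.77. Tnc (2.35 ± 0.31), Postn (1.48 ± 0.21) and Tgfb1 (1.36 ± 0.22) had the smallest p, and fibronectin, Fn1, which hepatocytes also make, was at -0.07 ± 0.19. The protease inhibitor Timp1 (13 counts in chow and 190 in the HFHS group) was called higher by DESeq2 but not by edgeR, and the matrix enzyme Lox (3 and 52 counts) was not tested. The count of rises was 3 without chow replicate 2 and 0 without chow replicate 3, with 9 higher in each of these fits at an unadjusted p under 0.05 by edgeR.

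Markers of other cells that share some of these genes moved too. Portal fibroblast markers, another source of myofibroblasts, rose in 5 of 8 tested of 10, with Dpt at 3.47 ± 0.49, Fbln2 at 1.66 ± 0.26 and Cd34 at 2.71 ± 0.48, and their summed level went from 18.0 to 21.5 CPM in chow to 57.1, 109 and 45.0 CPM in HFHS replicates 1, 2 and 3. Thy1, their usual surface marker, overlapped between the diets (0.28 ± 0.39). The mesothelial list had Wt1 higher (3.00 ± 0.68, 11 counts in chow and 116 in the other group). Its defining marker Msln had 16, 7 and 14 counts in chow and 0, 23 and 0 in HFHS replicates 1, 2 and 3. Msln was not called over all 6 libraries, and edgeR called it lower without HFHS replicate 2. Upk3b had 29 counts in chow and 7 in the HFHS group. Endothelial markers rose in 4 of 7, with Pecam1 at 0.95 ± 0.12, Cdh5 at 0.78 ± 0.16 and Stab2 at 0.79 ± 0.17, and a summed level of 200 to 254 CPM in chow and 273 to 359 CPM in the other group. Macrophage markers rose in 8 of 8, with Adgre1 at 2.21 ± 0.20, Csf1r at 1.70 ± 0.19 and Clec4f at 1.02 ± 0.12. Cholangiocyte markers rose in 5 of 6, among them Spp1 (2.74 ± 0.32), which macrophages also make, and Epcam (2.16 ± 0.44), while Cftr had 1 count over the chow libraries and 99 over the others. Hepatocyte markers, which identify the tissue, were abundant in all 6 libraries, with a summed level of 99010 to 119468 CPM in chow and 96554, 39165 and 70967 CPM in HFHS replicates 1, 2 and 3. Serpina1c, 1 of several near-identical genes whose split of reads is uncertain, fell by 1.26 on the log2 scale, and Ttr and Tat had all chow libraries on top without passing by edgeR, while DESeq2 called both lower. Serpina1c was not called without chow replicate 1, 2 or 3, without HFHS replicate 1, or with the replicate number as a block. Among the alternatives, edgeR did call Ttr lower with RLE scaling and without HFHS replicate 2 or 3, and Tat lower without HFHS replicate 1. Without chow replicate 3 edgeR called 0 higher in each of these lists; at an unadjusted p under 0.05 it then had 6 portal fibroblast, 1 mesothelial, 4 endothelial, 8 macrophage and 5 cholangiocyte markers higher. Without chow replicate 2 the counts called were 2 portal fibroblast, 0 mesothelial, 3 endothelial, 3 macrophage and 2 cholangiocyte markers. Portal fibroblast and cholangiocyte counts were 3 each without chow replicate 1. The endothelial count was 1 without chow replicate 1 or HFHS replicate 1 and 2 with the replicate number as a block, and Wt1 was not called without HFHS replicate 1. The part of these cell types in the results above was not tested.

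**Figure D5:**
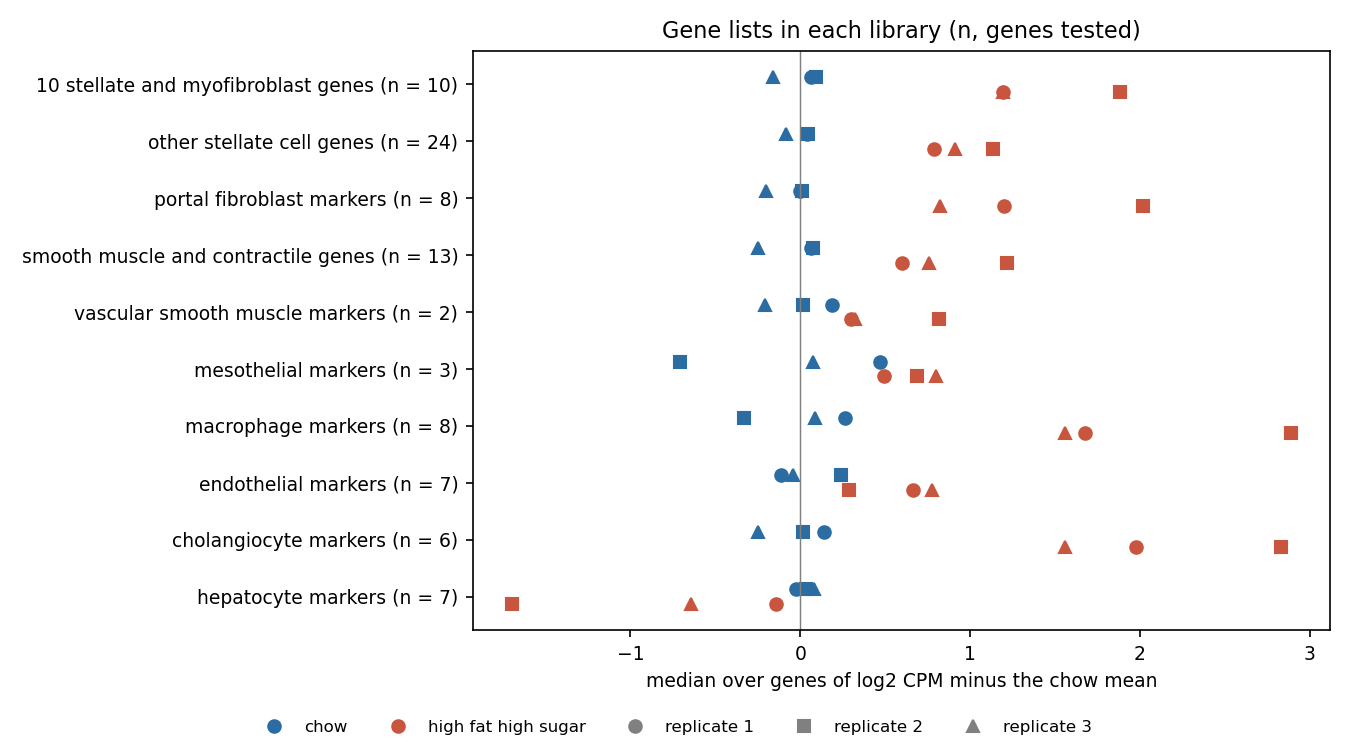
Median over the tested genes of a list of log2 CPM minus the chow mean (x axis) for 10 lists (y axis) in each library; colours mark diet and symbols replicates. The 10 stellate and myofibroblast genes sit at 1.19, 1.88 and 1.20 in HFHS replicates 1, 2 and 3, the macrophage list at 1.68, 2.89 and 1.56 and the hepatocyte list at -0.14, -1.70 and -0.64.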

How the data were processed

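The authors deposited raw read counts per gene symbol, 1 table per library. Per the submitters' processing notes reads were aligned with STAR to mm10. Per the labels' protocols, polyA RNA was made into dUTP-based stranded libraries. How reads were assigned to genes (program, annotation, strand setting) is not given in the sources used here. Rows for reads outside genes (7.74% to 10.6% of counts) and ambiguous reads (0.615% to 0.862%) were left out. The labels name no batch, and any difference in handling between the diets cannot be told apart from diet.

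Genes passing filterByExpr (minimum count 10) were scaled by TMM and tested for diet with edgeR's quasi-likelihood F test, robust and without covariates (edgeR 4.0.16, limma 3.58.1, DESeq2 1.42.0, R 4.3.3), with Benjamini-Hochberg adjustment over all tested genes and a threshold of 0.05. SE is the log2 fold change divided by the square root of F. Ratios were taken from log2 CPM at prior count 2. Replicate pairs within a diet differed by more than sampling noise (chi-square per gene of at least 23.5). The 10 genes and the lists were chosen with earlier results of these data known. All 10 genes are named, and of each list up to 3 genes with the smallest p, the strongest in the minority direction and a fixed set of pathway genes. Other genes named as examples were chosen after their values were seen. A list of globins had 0 tested members. Of the lists as first written, 2 genes are not reported here and enter no list count. Positions and exon lengths are from GENCODE M21 (GRCm38), promoters from RefSeq.

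On counts simulated for the diet comparison, 3 libraries a side (12792 genes), edgeR recovered 46% of genes changed 2-fold and 89% of genes changed 4-fold, with 9 false calls among 144. Depth of 16565335 to 20585366 counts puts 3 counts at 0.115 to 0.202 CPM; this covers counting error only. Alternatives were other scalings, no filter, DESeq2, limma-voom, a replicate block, another prior count and leaving out each library. On the simulated counts, 31 of the 183 genes that DESeq2 called were wrong, as were 8 of 136 for limma-voom. The simulation changed far fewer genes than edgeR called in the data, in random directions and with dispersions estimated by edgeR. Its recovery and false calls may therefore not carry over to the data. Genes called by DESeq2 and not by edgeR are treated with caution here and are not counted among the rises and falls.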

Additional observations from a re-analysis of the deposited data

How the results depend on the processing

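All 10 genes kept their direction under the 13 alternatives run on single genes. Calls higher among them stayed at 7 to 9 under scaling, filter, tool and block alternatives and ran from 0 (without chow replicate 3) to 8 when a library was left out. Calls lower ran from 0 to 1, the 1 being Hhip without HFHS replicate 3. Reln, Colec11 and Pdgfrb lost their call only without chow replicate 3. Over all genes, leaving out a library gave 4 to 1664 higher and 2 to 772 lower. Against 1428 higher and 468 lower with TMM, library size only gave 1925 and 200 and moved the median of all genes from -0.02 to 0.25. Genes lower numbered 974 with DESeq2 and 282 with the replicate block. Replicate numbers are shared by the diets, but same-numbered libraries deviated with correlations of -0.25, -0.17 and 0.03, so no pairing was assumed; with the replicate block 961 genes were higher and 8 of the 10 genes rose, with Acta2 in and Vim out.

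Of the 12 ratios, 5 changed sign when a library was left out, all of them with overlapping diets. With a library left out the differences ranged from -0.23 (without HFHS replicate 2) to 0.027 (without HFHS replicate 1) for Pdgfra to Pdgfrb and from -0.10 (without chow replicate 2, and -0.096 without HFHS replicate 3) to 0.35 for Cygb to Pdgfrb. They ranged from -0.38 to 0.055 (without HFHS replicate 1) for Vim to Pdgfrb, from -0.66 to 0.0026 (without chow replicate 2) for Acta2 to Pdgfrb, and from -0.22 (without HFHS replicate 2, and -0.024 without chow replicate 2) to 0.16 for Tagln to Reln. The cause was not tested. Of 442 recomputed counts over 17 other lists, 58 moved by over 1.5 times or to or from 0, 42 of them with a library left out. Acta2 and Hhip rest on 9 to 111 counts a library, the lowest depth among the 10 genes.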
